A study of Mus musculus with 6 samples.

Results

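The mitochondrial ribosomal protein genes were examined in liver RNA-seq of acute ethanol-exposed and control mice. Members were all rows of the deposited gene table whose symbol begins with Mrpl or Mrps followed by a digit, without pseudogenes, which gave 78 of the 28880 genes. All 78 members passed the filter on low counts, as did 16717 genes in all, and the lowest count of any member in any library was 131. The 5 pseudogenes left out by the rule held at most 65 counts in a library, and no symbol occurred more than once among the members.

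Both groups were wild-type male C57BL/6J mice aged 6 to 8 weeks, with 3 mice each and all 6 libraries labelled batch 1. The ethanol mice were fasted for 12 h and were then gavaged once with ethanol (6 g/kg, given as 50% v/v). Livers were collected 24 h later. The control mice received no ethanol. Whether they were also fasted is not given in the sources used here, so effects of the fast and of ethanol cannot be told apart. Total RNA of whole liver was sequenced, so fewer cells of a type and less RNA per cell cannot be told apart either.

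Mitochondria hold their own ribosome, which translates the few membrane proteins encoded by mitochondrial DNA, all of them subunits of the respiratory chain and ATP synthase. Its RNA is transcribed from mitochondrial DNA, whereas every protein of its large subunit (symbols Mrpl) and small subunit (symbols Mrps) is encoded in the nucleus, made in the cytosol and imported. Some of these proteins descend from bacterial ribosomal proteins and others have no bacterial counterpart, and hepatocytes are rich in mitochondria.

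The libraries held 60514417 to 74210869 counts. The scaling factors of the trimmed mean of M values (TMM), which set the libraries to a common level for most genes, were 0.768 to 0.836 in ethanol mice and 1.26 to 1.27 in control mice. This gap matters for every direction below. As a share of all counts, the members summed to 1352, 1397 and 1393 CPM (counts scaled to a fixed library total) in the ethanol mice and to 1944, 1943 and 1961 in the control mice, so all ethanol libraries lay below all control libraries. After TMM scaling the sums were 1739, 1672 and 1816 CPM against 1537, 1543 and 1560, with all ethanol libraries above. The summed level of 8 hepatocyte markers moved with the same contrast, from 69970 to 81400 TMM-scaled CPM in control mice to 130200 to 133400 in ethanol mice, with 7 of 8 higher by adjusted p and none at 0. Neutrophil markers lay at 1.77 to 10.9 CPM in ethanol mice and 0.118 to 0.330 in control mice, erythroid markers at 403 to 600 and 142 to 175 CPM, and cholangiocyte markers at 33.9 to 39.6 and 6.87 to 10.3 CPM. Kupffer cell markers were lower in all ethanol mice, at 66.9 to 90.4 against 91.4 to 96.2 CPM, as were pancreas markers, at 9.29 to 11.01 against 17.2 to 21.6 CPM, and T cell markers, below 1 CPM in every library, whereas endothelial, stellate and B cell markers overlapped between the groups. These ranges are sums over a list. By adjusted p, 3 of 3 neutrophil, 2 of 3 erythroid and 1 of 4 cholangiocyte markers tested rose and none fell. Of 6 Kupffer cell markers 1 fell and none rose, and the 1 pancreas marker tested fell. Endothelial markers held 1 rise and 2 falls among 5, stellate markers 1 and 1 among 5, and B cell markers 1 fall among 3. Over all genes 21.5% were called in each direction. The part of these markers in the results was not tested.

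To see which members differed between the groups, a quasi-likelihood test was run on the counts in edgeR and its p-values were adjusted by Benjamini-Hochberg across 16717 genes. Of the 78 members, 2 fell by more than 2-fold at an adjusted p under 0.05, namely Mrpl49 and Mrps22, and none rose by more than 2-fold; no member had a log2 fold change above 1 at any p, and DESeq2 and limma also gave 0 such rises. Over all genes tested, 13.8% fell and 10.4% rose by this rule. By adjusted p alone, with TMM scaling, 18 members rose, 13 fell and 47 did not pass, which is 23.1% and 16.7% of the members against 21.5% of all genes in each direction. In 27 members all ethanol mice lay above all control mice and in 17 they lay below, beside 28% and 31% of all genes. The members' median log2 fold change (ethanol against control) was 0.10 with an interquartile range of 0.60, whereas all genes tested had a median of -0.04 and an interquartile range of 1.38. The rises depended on the choice between these scalings: with library size alone, 10 of the 18 members that rose had a negative log2 fold change and none was higher by adjusted p or at an unadjusted p under 0.05, and Mrpl2 was called lower (-0.32, adjusted p = 0.0317). Library size alone moved every member down by nearly the same amount, 0.66 to 0.69 on the log2 scale, so that the 13 falls were still called there is no sign of their stability. The median of all genes tested was then -0.71 and that of the members -0.57, and 48.3% of all genes fell and 7.39% rose by adjusted p. The members' median lay 0.14 above that of all genes with TMM scaling. With limma it lay 0.02 above it on log2(FPKM + 0.1) and 0.22 below it on log2(FPKM + 1), so its sign depended on the pseudocount there. The sign also turned with TMM scaling among the 49 members with a mean FPKM of at least 5. Their median was -0.12, or -0.13 relative to all genes of that filter. With upper-quartile factors the members' own median was 0.0012, with 39 members higher and 39 lower.

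These counts also moved with single mice. Of the 18 rises 10, and of the 13 falls 7, were called in each of the 6 fits that left out 1 mouse. Without control 1 the rises numbered 11, and without control 2 or without control 3 the falls numbered 7. Without ethanol 1 only 1 member fell by more than 2-fold, and without ethanol 1 or without ethanol 2 Mrpl18 passed the 2-fold rule for a rise.

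**Figure D1:**
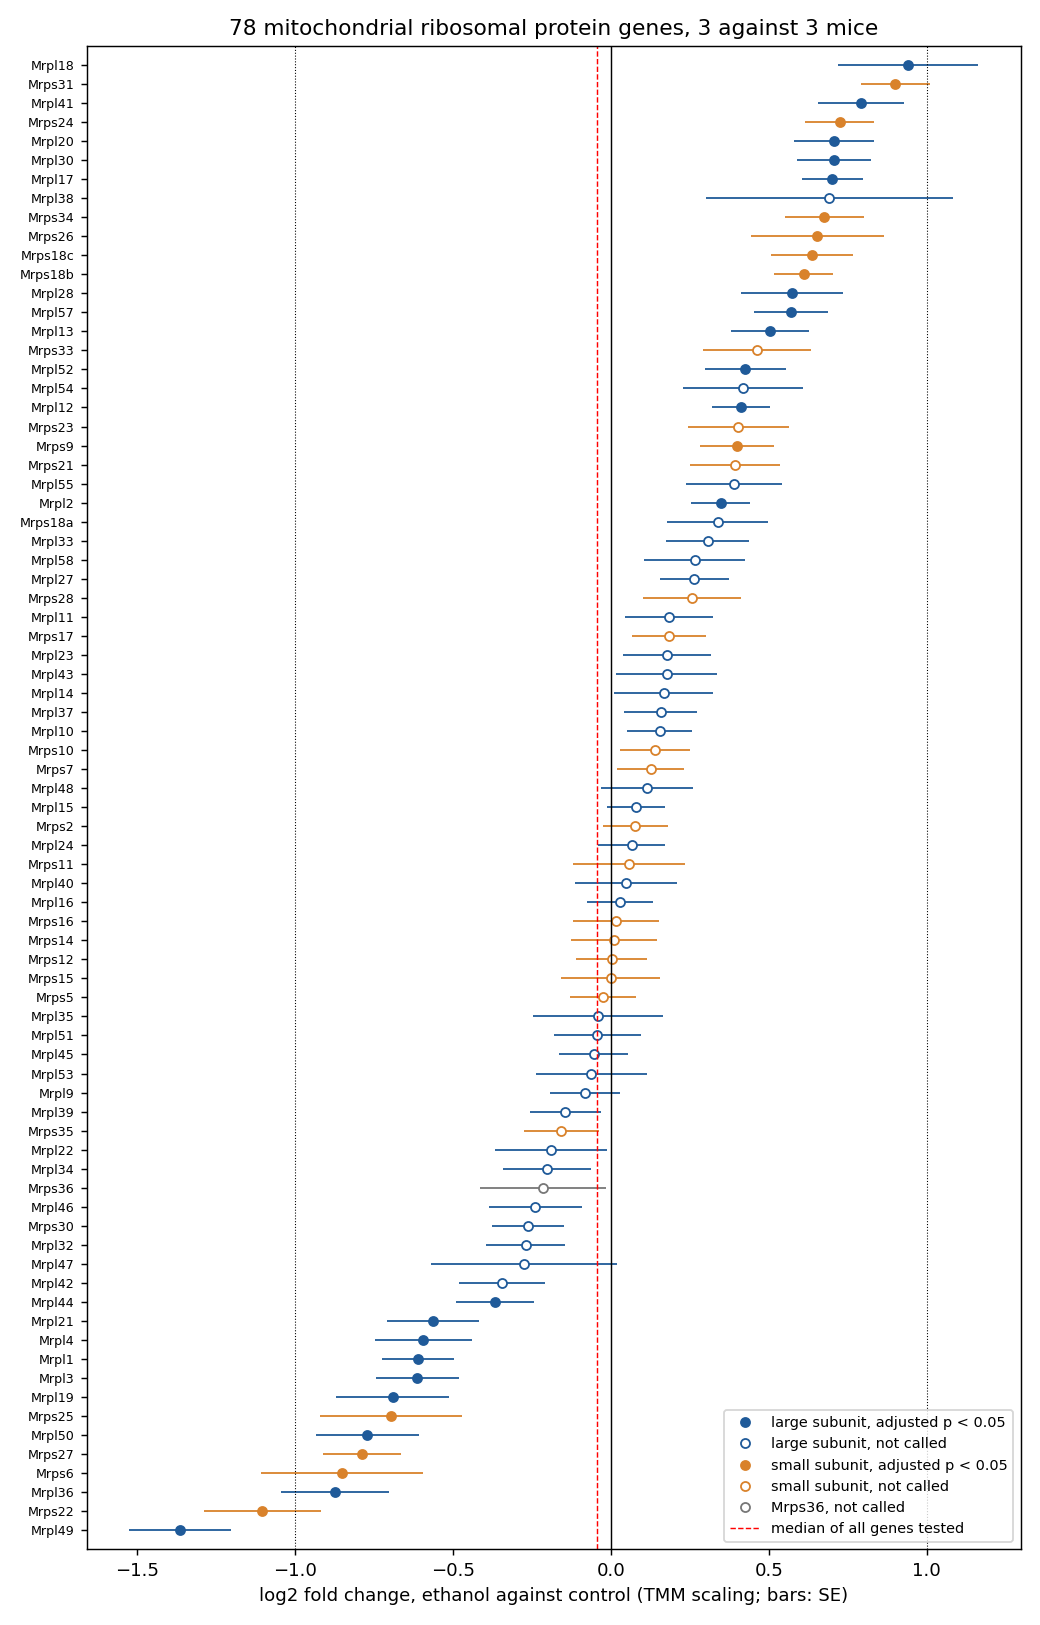
Log2 fold change (ethanol against control, TMM scaling) of the 78 members, ordered by value, with 1 SE as a bar; filled points have an adjusted p under 0.05, dotted lines mark 2-fold and the dashed line is the median of all genes tested. Values run from -1.36 (Mrpl49) to 0.94 (Mrpl18) with members of both subunits at both ends, and with library size alone 10 of the 18 filled points above 0 turn negative.

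The promoters of the members at the 2 ends of this order are shown because they are the regulatory sequence next to those members' starts. RefSeq windows on GRCm38.p6, 250 bases before to 50 bases after the annotated start, matched 69 of the 78 symbols and gave 75 windows. The stretches below end 30 bases after the start and are written 5′ to 3′ on the strand of the gene, with capitals for the letters CCGGAAG (the core bound by ETS factors such as GABP), GCGCATG (part of the NRF1 element) and AAGATGG (part of the YY1 element) on either strand. They show Mrpl49 (chr19:6057726-6058005, minus strand) and Mrps22 (chr9:98601650-98601929, minus strand), which fell most, Mrpl18 (chr17:12916062-12916341, minus strand) and Mrps31 (chr8:22411090-22411369, plus strand), which rose most, and Mrpl17 (chr7:105811058-105811337, minus strand), a rise with letters of more than 1 kind.
Mrpl49: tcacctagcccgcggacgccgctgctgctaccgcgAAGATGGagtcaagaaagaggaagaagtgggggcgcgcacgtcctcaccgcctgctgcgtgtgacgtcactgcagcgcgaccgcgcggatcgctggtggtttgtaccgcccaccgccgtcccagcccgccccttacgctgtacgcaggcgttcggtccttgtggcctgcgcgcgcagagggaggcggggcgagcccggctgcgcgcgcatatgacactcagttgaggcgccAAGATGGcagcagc
Mrps22: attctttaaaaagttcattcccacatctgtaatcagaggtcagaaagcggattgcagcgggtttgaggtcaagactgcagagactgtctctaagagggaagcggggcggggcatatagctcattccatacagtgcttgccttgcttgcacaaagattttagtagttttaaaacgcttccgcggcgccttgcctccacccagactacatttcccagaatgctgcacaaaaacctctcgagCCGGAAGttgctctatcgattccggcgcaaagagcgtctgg
Mrpl18: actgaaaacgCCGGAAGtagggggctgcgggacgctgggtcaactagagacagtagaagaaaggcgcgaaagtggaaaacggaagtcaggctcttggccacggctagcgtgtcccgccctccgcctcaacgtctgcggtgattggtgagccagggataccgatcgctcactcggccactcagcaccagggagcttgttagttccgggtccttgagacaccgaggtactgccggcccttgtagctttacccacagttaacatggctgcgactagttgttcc
Mrps31: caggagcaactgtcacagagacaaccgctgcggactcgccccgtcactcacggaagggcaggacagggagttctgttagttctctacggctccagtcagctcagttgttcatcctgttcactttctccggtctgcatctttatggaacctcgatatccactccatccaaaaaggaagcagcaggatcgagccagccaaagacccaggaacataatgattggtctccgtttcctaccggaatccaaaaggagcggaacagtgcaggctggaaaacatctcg
Mrpl17: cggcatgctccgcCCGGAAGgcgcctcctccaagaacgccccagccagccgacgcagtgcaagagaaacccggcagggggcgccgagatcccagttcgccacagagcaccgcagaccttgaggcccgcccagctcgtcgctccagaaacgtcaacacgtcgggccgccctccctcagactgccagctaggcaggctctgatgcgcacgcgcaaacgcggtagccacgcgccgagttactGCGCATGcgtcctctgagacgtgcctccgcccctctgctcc

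Mrpl49 held the YY1 letters from base -215 and again from base 17, counted from the start, and Mrps22 the ETS letters from base -11. Mrpl18 held the ETS letters from base -240, Mrpl17 the ETS letters from base -237 and the NRF1 letters from base -11, and Mrps31 held none of these letters in its window. Over the members, 26 of 75 windows (34.7%) held the ETS letters, against 8.86% of all 32851 windows and 15.7% of the windows of tested genes. The YY1 letters were in 13 windows (17.3%, against 6.34% and 6.72%) and the NRF1 letters in 8 (10.7%, against 3.91% and 6.11%). At least 1 of the 3 was in 38 member windows (50.7%, against 17.5% of all windows and 25.5% of those of tested genes), and no match of 1 kind overlapped a match of another. GGGCGG was in 52% of member windows and 58.2% of those of tested genes, CCAAT in 40% and 37.5%, and TATAAA in 6.67% and 8.16%. Among genes with a window, the ETS letters occurred in 7 of 16 that rose, 4 of 11 that fell and 15 of 42 that were not called, the YY1 letters in 2, 3 and 8 and the NRF1 letters in 2, 0 and 6. A match describes letters in the sequence and is no evidence of binding.

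Among the large-subunit proteins, the lowest value belonged to Mrpl49 (ENSMUSG00000007338), a protein with no bacterial counterpart. Its TMM-scaled levels were 8.26, 10.8 and 7.44 CPM in the ethanol mice and 21.5, 22.6 and 24.0 CPM in the control mice. The highest ethanol mouse lay below the lowest control mouse by a wide gap, and the log2 fold change was -1.36 (SE 0.16, edgeR adjusted p = 0.000917). Mrpl36, a small zinc-binding protein with a bacterial counterpart, was at 8.88, 9.62 and 6.45 CPM against 15.6, 15.4 and 14.7 CPM. Here the control mice lay close together and all above the ethanol mice, at a log2 fold change of -0.87 (SE 0.17, adjusted p = 0.00632). Mrpl50, which has no bacterial counterpart, was at 12.9, 17.3 and 13.3 CPM against 28.8, 22.8 and 22.6 CPM, with control 1 above the other two (-0.77, SE 0.16, adjusted p = 0.00873). The other large-subunit members that fell were Mrpl19 (-0.69), Mrpl3 (-0.61), Mrpl1 (-0.61), Mrpl4 (-0.59), Mrpl21 (-0.56) and Mrpl44 (-0.37), 5 of them relatives of bacterial proteins and Mrpl44 a relative of ribonuclease III. Of the 6 fits that left out a mouse, the call was lost in 5 for Mrpl44 (adjusted p up to 0.16) and Mrpl4 (up to 0.0715), in 4 for Mrpl19 (up to 0.0716) and in 3 for Mrpl21 (up to 0.0825).

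The largest rise was that of Mrpl18 (ENSMUSG00000057388), a relative of the bacterial protein that binds 5S rRNA, in the central protuberance of the large subunit. It was at 52.9, 60.5 and 93.9 CPM in the ethanol mice and 31.3, 37.9 and 38.9 CPM in the control mice. The groups did not overlap but ethanol 3 stood well above the other two, and the log2 fold change was 0.94 (SE 0.22, edgeR adjusted p = 0.0132). It ran from 0.66 to 1.10 when 1 mouse was left out, and its call was lost without control 1 (0.85, adjusted p = 0.0585). Mrpl41, a large-subunit protein without a bacterial counterpart, was at 13.9, 13.7 and 16.6 CPM against 8.58, 7.97 and 8.96 CPM (0.79, SE 0.13, adjusted p = 0.00361). Mrpl20 rose from 16.9, 17.7 and 18.9 CPM in the control mice to 33.5, 27.2 and 26.6 CPM (0.71, SE 0.13), and Mrpl30 from 22.9, 25.99 and 27.02 CPM to 45.5, 38.1 and 40.1 CPM (0.71, SE 0.12). In each of these 3 the groups were apart, and with library size alone Mrpl18, Mrpl41, Mrpl20 and Mrpl30 were at 0.27, 0.12, 0.04 and 0.04, none of them called. The remaining large-subunit members that rose were Mrpl28 (0.57), Mrpl57 (0.57), Mrpl13 (0.50), Mrpl52 (0.43) and Mrpl2 (0.35), which were all below 0 with library size alone, at -0.10, -0.10, -0.17, -0.25 and -0.32. The call was lost in 4 of the 6 fits that left out a mouse for Mrpl52 (adjusted p up to 0.126), in 3 for Mrpl28 (up to 0.103) and Mrpl2 (up to 0.0993), and in 2 for Mrpl13 (up to 0.0602). Also called were Mrpl12 of the stalk and Mrpl17 of the exit tunnel, given with their groups.

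Mrpl38, at the central protuberance as well, had a log2 fold change close to these, 0.69, but with an SE of 0.39 and an adjusted p of 0.193. Its levels were 51.9, 50.4 and 142.2 CPM in the ethanol mice and 50.7, 50.8 and 49.9 CPM in the control mice, so ethanol 3 alone was high and the groups overlapped. With 1 mouse left out its value ran from 0.03 to 0.94, the lowest of them without ethanol 3.

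Among the small-subunit proteins, Mrps22 (ENSMUSG00000032459), a protein without a bacterial counterpart whose human counterpart is mutated in inherited deficiencies of oxidative phosphorylation, fell most. It was at 6.34, 10.2 and 9.25 CPM in the ethanol mice and 17.98, 19.2 and 18.2 CPM in the control mice. All control mice lay above all ethanol mice, and the log2 fold change was -1.10 (SE 0.19, edgeR adjusted p = 0.00351), or -0.93 without ethanol 1. Mrps27, a pentatricopeptide repeat protein, was at 17.2, 21.7 and 19.7 CPM against 33.0, 36.6 and 31.7 CPM (-0.79, SE 0.12, adjusted p = 0.00265). Mrps6, a relative of bacterial S6, was at 4.22, 4.10 and 2.40 CPM against 6.74, 5.54 and 7.10 CPM (-0.85, SE 0.26, adjusted p = 0.0323), and its call was lost when any 1 control mouse was left out. Mrps6 also shares its strand and 29152 bp with Slc5a3, a myo-inositol transporter gene at -2.07, and how the counting divided reads between the pair was not tested. Mrps25, at -0.70, was the remaining small-subunit member that fell, and its call was lost in 4 of the 6 fits (adjusted p up to 0.141).

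In the other direction, Mrps31 (ENSMUSG00000031533), without a bacterial counterpart, was at 48.1, 47.7 and 41.6 CPM in the ethanol mice and 25.7, 22.6 and 25.2 CPM in the control mice. Its groups were far apart relative to their spread, at a log2 fold change of 0.90 (SE 0.11, adjusted p = 0.00104), and it ran from 0.84 to 0.98 with 1 mouse left out. When the trend of fold change with transcript length was removed, its value was 1.02 and it was the single member past 2-fold upward; with library size alone it was 0.24 and not called. Mrps24, a relative of bacterial S3 at the entry of the mRNA path, was at 40.2, 34.0 and 34.1 CPM against 22.0, 22.4 and 21.04 CPM (0.73, SE 0.11, adjusted p = 0.00228), and 0.06 with library size alone. Mrps34 (0.68) and Mrps9 (0.40) rose as well, and Mrps9 turned to -0.27 with library size alone. Mrps26 rose by 0.65 with TMM scaling and was at -0.02 with library size alone. The call of Mrps9 was lost in 5 of the 6 fits that left out a mouse (adjusted p up to 0.122) and that of Mrps26 in 4 (0.42 to 0.79, adjusted p up to 0.139).

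**Figure D2:**
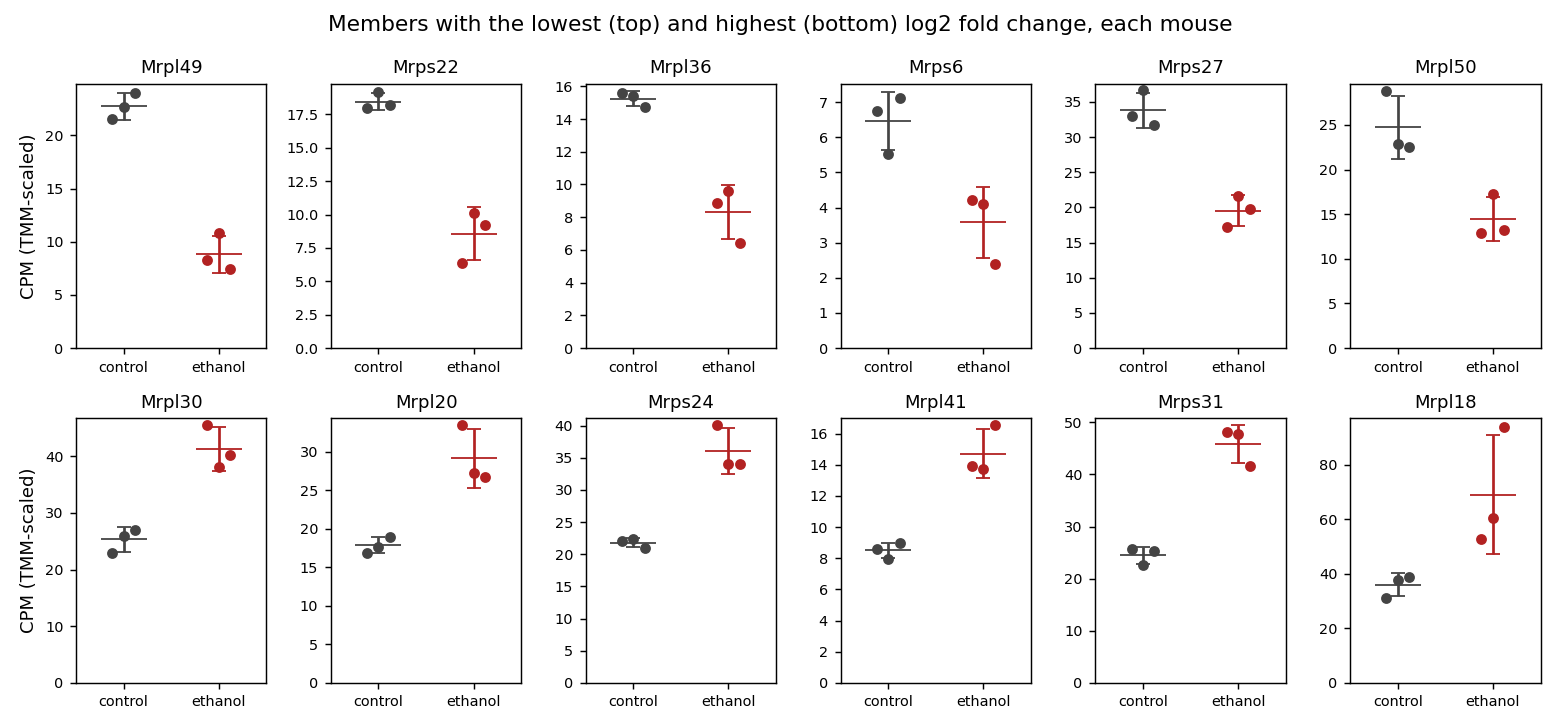
TMM-scaled CPM of each mouse for the 6 members with the lowest log2 fold change (top row) and the 6 with the highest (bottom row), with the mean as a horizontal line and the SD as a bar (n = 3 per group). The groups are apart in every panel, and for Mrpl18 ethanol 3, at 93.9 CPM, lies above the other two ethanol mice; with library size alone the members of the bottom row are between 0.04 and 0.27 in log2 fold change and none is called.

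By position in the ribosome, both subunits held calls in both directions with TMM scaling. Of 51 large-subunit members, 11 rose and 9 fell with a median log2 fold change of 0.08, and of 26 small-subunit members 7 rose and 4 fell with a median of 0.13; over all genes 21.5% were called in each direction. With library size alone these medians were -0.59 and -0.54, with 0 rises in either subunit and 35 and 15 falls, where 7.39% of all genes rose and 48.3% fell. With TMM scaling and 1 mouse left out, 6 to 13 large-subunit members rose and 5 to 12 fell. In the small subunit 5 to 9 rose and 2 to 4 fell. At mean levels of 5 FPKM or more, 4 of 35 large-subunit members rose and 12 fell (median -0.21). Of 14 small-subunit members there, 5 rose and 2 fell (median 0.13). The share of all genes called at those levels was not computed, so these counts have no background beside them. With TMM scaling over all mice and members, relatives of bacterial proteins had medians of 0.12 in the large subunit (8 of 30 rose, 6 fell) and 0.10 in the small subunit (3 of 16 rose, 1 fell). Proteins listed without a bacterial counterpart, among which Mrps18a and Mrps18b are counted although they are paralogs of bacterial S18, had medians of 0.05 (3 of 21 rose, 3 fell) and 0.43 (4 of 10 rose, 3 fell). The last of these lists was divided, with Mrps31, Mrps34, Mrps26 and Mrps18b called upward and Mrps22, Mrps27 and Mrps25 called downward, and its median was -0.24 with library size alone. With TMM scaling all these lists contain members of both directions, and no test of one list against another was made.

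The stalk of the large subunit, which recruits translation factors, is built from Mrpl10, Mrpl11 and Mrpl12. Mrpl12, the stalk protein itself, was at 85.3, 80.8 and 84.9 CPM in the ethanol mice and 65.3, 63.3 and 60.1 CPM in the control mice. It rose by 0.41 (SE 0.09, adjusted p = 0.0102) with TMM scaling, was at -0.26 with library size alone (adjusted p = 0.0548), and was called lower by limma on log2(FPKM + 1), at -0.25 (adjusted p = 0.031); its call upward was lost in 2 of the 6 fits that left out a mouse (adjusted p up to 0.061). Mrpl10 and Mrpl11 were at 0.15 and 0.18 and did not pass.

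Around the exit of the polypeptide tunnel, where new proteins meet the inner membrane, 1 of 8 members rose, 1 fell and 6 were not called, beside 21.5% of all genes called in each direction. The rise was that of Mrpl17, at 56.8, 54.3 and 53.4 CPM against 31.7, 33.8 and 35.7 CPM, with tight and separate groups (0.70, SE 0.10, adjusted p = 0.00158; 0.03 with library size alone). The fall was that of Mrpl44, described above. Mrpl45, which anchors the ribosome to the inner membrane, was at -0.05 (SE 0.11), and Mrpl22, Mrpl23, Mrpl24 and Mrpl39 were at -0.19, 0.18, 0.07 and -0.15, of which Mrpl22 was called lower without ethanol 3 (-0.35, adjusted p = 0.048). Mrpl47 was at 6.22, 6.08 and 12.4 CPM in the ethanol mice and 10.6, 8.70 and 10.7 CPM in the control mice. Ethanol 3 was thus above every control mouse and the other ethanol mice below all of them (-0.27, adjusted p = 0.478), and without ethanol 3 the log2 fold change was -0.69 (adjusted p = 0.00506).

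On the mRNA path and at the decoding centre of the small subunit, Mrps24 was the single member of 7 that passed, beside the same 21.5% of all genes in each direction. Mrps12, the relative of bacterial S12 that monitors codon pairing, had the closest match between groups of these 7, with 20.3, 20.8 and 17.7 CPM against 19.2, 20.5 and 18.9 CPM and a log2 fold change of 0.00 (SE 0.11). Mrps2, Mrps5, Mrps7, Mrps11 and Mrps28 were at 0.08, -0.03, 0.13, 0.06 and 0.26.

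The 3 paralogs of bacterial S18 sit in the mammalian mitoribosome, Mrps18a in the large subunit and Mrps18b and Mrps18c in the small subunit. Mrps18b was at 53.3, 54.5 and 56.8 CPM against 34.2, 36.6 and 37.0 CPM (0.61, SE 0.09, adjusted p = 0.00235), and Mrps18c at 10.5, 11.3 and 10.6 CPM against 6.55, 7.28 and 6.96 CPM (0.64, SE 0.13, adjusted p = 0.00733). Both rose with TMM scaling, with all ethanol mice above all control mice, and were at -0.06 and -0.03 with library size alone. Mrps18a, at 24.0, 23.5 and 17.2 CPM against 15.5, 18.9 and 16.7 CPM, overlapped between the groups (0.34, SE 0.16, adjusted p = 0.129), and without ethanol 3 it was 0.49 (adjusted p = 0.00864).

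Not every member with an Mrps symbol belongs to the small subunit. Mrps30, a large-subunit protein despite its name, was at 13.5, 14.4 and 15.9 CPM against 17.4, 18.2 and 17.0 CPM, apart in all mice but not called (-0.26, adjusted p = 0.0982; -0.32 and adjusted p = 0.0284 without ethanol 3). Mrps36, now known as a subunit of the 2-oxoglutarate dehydrogenase complex, was at -0.21 (SE 0.20, adjusted p = 0.416). Of the 5 mitoribosomal proteins whose symbols lie outside the rule, Aurkaip1 rose (0.49, SE 0.12, adjusted p = 0.0129), Gadd45gip1 (-0.50, SE 0.11, adjusted p = 0.00933) and Ptcd3 (-0.37, SE 0.11, adjusted p = 0.0308) fell, and Dap3 (0.18) and Chchd1 (0.27) did not pass; with library size alone 3 of the 5 fell and Aurkaip1 was no longer called upward.

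Levels between genes were compared per length, as the deposited FPKM, which is scaled by library size without TMM factors. The highest members by mean over all mice were Mrpl12 at 48.4 ± 2.17 FPKM in control mice and 40.4 ± 0.711 in ethanol mice (SD, n = 3 each), Mrpl18 at 30.4 ± 3.40 and 36.4 ± 10.6, Mrpl34 at 30.4 ± 2.42 and 16.6 ± 2.40, and Mrpl38 at 23.3 ± 0.271 and 23.4 ± 14.4. The order differed within each group: Mrps7 (26.04 FPKM), Mrpl10 (25.7), Mrpl2 (24.9), Mrpl53 (24.6) and Mrpl27 (23.9) lay above Mrpl38 in control mice, and 6 members other than Mrpl12, Mrpl18 and Mrpl38, led by Mrpl2 (19.9) and Mrps18b (19.4), lay above Mrpl34 in ethanol mice. Mrpl12 lay above the rest in control mice, whereas Mrpl18 and Mrpl34 did not differ there beyond their spread. The lowest by mean over all mice were Mrpl48 at 1.58 ± 0.0637 and 1.07 ± 0.158, Mrpl33 at 1.66 ± 0.187 and 1.29 ± 0.0585, Mrpl19 at 2.24 ± 0.115 and 0.864 ± 0.152, and Mrpl47 at 2.66 ± 0.298 and 1.37 ± 0.563 FPKM. Here too the order differed within each group: Mrps35 (2.60 FPKM) lay below Mrpl47 in control mice, and in ethanol mice Mrpl19 was lowest and Mrps25 (1.20) and Mrpl3 (1.22) lay below Mrpl33 and Mrpl47. Mrpl48 and Mrpl33 were within their spread of each other in control mice. Transcripts for the parts of a single particle thus spanned 30.7-fold in mean FPKM in control mice and 46.8-fold in ethanol mice, and the order of the 78 members was much the same in both (Spearman rho 0.93, across genes that share the libraries and lengths, given as a description).

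Fold change moved with transcript length over all genes, so the members were set beside genes of like length. Length here is the exon length implied by each gene's count and FPKM, with a median of 2563 nt for members and 4059 nt for all genes tested. The members were cut by length into 4 classes of 19 or 20. In the shortest class, up to 1584 nt, their median log2 fold change was 0.31 and that of all other genes in the range 0.27. In the next class the medians were 0.07 and 0.06. In the 2 longer classes, from 2559 nt, the members stood at 0.02 and 0.10 and the other genes at -0.09 and -0.18. Calls in both directions occurred in all 4 classes, with 7 rises and 1 fall in the shortest class, 4 and 6 in the next, 3 and 2, and 4 and 4 in the longest. Over genes of all lengths 21.5% were called in each direction. The share of other genes called within a class was not computed, so these counts were not compared by class. With the trend removed, 18 members rose and 13 fell, of which 16 and 12 were the members called before.

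**Figure D3:**
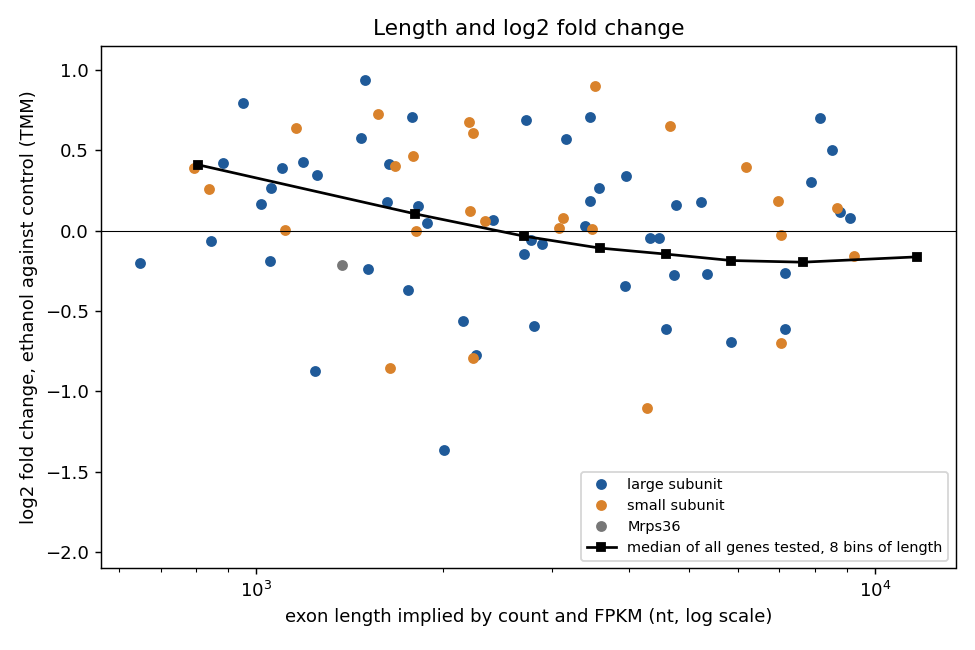
Log2 fold change (TMM scaling) of each member against the exon length implied by its count and FPKM (log axis), with the median of all genes tested in 8 bins of length as squares. The median of all genes falls from 0.41 in the shortest bin to -0.16 in the longest, and members of up to 7143 nt lie on both sides of the line, while the 7 longest, of 7870 to 9241 nt, lie above it.

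The members were then set beside the other parts of mitochondrial gene expression. The 76 cytosolic ribosomal protein genes rose nearly as a block, with 75 called upward, 0 downward (by edgeR at an unadjusted p under 0.05, by DESeq2 and by limma as well) and a median log2 fold change of 0.89. The 91 tested nuclear genes for subunits and Ndufaf assembly factors of oxidative phosphorylation had a median of 0.66 with 73 rises and 3 falls. With library size alone the medians of these lists were 0.22 and -0.01, with 15 rises and 0 falls and 6 rises and 13 falls, while the members had 0 rises and 51 falls (65.4% of them, against 48.3% of all genes). Relative to the median of all genes, the 3 lists stood at 0.93, 0.70 and 0.14 with TMM scaling at 0.80, 0.56 and 0.02 with limma on log2(FPKM + 0.1), and at 0.48, 0.25 and -0.22 with limma on log2(FPKM + 1).

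The factors that serve the mitoribosome had lower medians than the members with TMM scaling, but the assembly factors did not when the test was limited to mean levels of 5 FPKM or more, where 7 of them remained: their median was -0.03 and that of the 49 members tested there -0.12. The counts below stand beside 21.5% of all genes called in each direction. Of 29 assembly factors and rRNA-modifying enzymes tested, 12 fell and 4 rose (median -0.48). With 1 mouse left out, 5 (without control 2) to 15 (without ethanol 3) of these factors fell and 2 to 6 rose. Among them Ngrn, which is needed for 16S rRNA, was at 3.62, 3.86 and 4.86 CPM against 12.8, 12.9 and 11.1 CPM (-1.57, SE 0.17, adjusted p = 0.000654), and the helicase Dhx30 was at -0.81 (SE 0.11, adjusted p = 0.00147). Of 18 translation factors and activators 7 fell and none rose (median -0.47), with Mtif2, the initiation factor, at -1.03 (SE 0.11, adjusted p = 0.000566) and the release factor Mtrf1 at -1.25 (SE 0.17, adjusted p = 0.00157). Of 17 mitochondrial aminoacyl-tRNA synthetases 6 fell and none rose (median -0.50), among them Hars2 at -0.99 (SE 0.12, adjusted p = 0.00108); neither list had a rise at an unadjusted p under 0.05 in edgeR or by adjusted p in DESeq2 or limma. With library size alone 22 of the 29 assembly factors fell and 1 rose, and 17 of the 18 translation factors and 16 of the 17 synthetases fell, beside 48.3% of all genes. These genes are longer than the members, with median lengths of 3865, 4034 and 5863 nt, and with the length trend removed the medians were -0.31, -0.40 and -0.34, with 1 rise each among the translation factors and the synthetases. With TMM scaling and without ethanol 3, 9 synthetases fell and 1 rose, whereas 4 fell when any 1 control mouse was left out.

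Of 18 genes for maintenance and transcription of mitochondrial DNA, 6 fell and 1 rose (median -0.44), and 16 fell with library size alone. With TMM scaling, 11 fell without ethanol 3, and 5 fell without control 2 or without control 3. The nuclease Mgme1 was at 0.973, 2.14 and 1.03 CPM against 7.99, 6.71 and 7.38 CPM (-2.41, SE 0.34, adjusted p = 0.00171), the polymerase Polrmt was at -1.01 (SE 0.25, adjusted p = 0.0149), and Hsd17b10, a subunit of mitochondrial RNase P, rose by 0.78. Of 17 genes for protein import 4 rose and 1 fell (median 0.22), beside the same 21.5% of all genes. With library size alone 1 rose and 10 fell (median -0.45). With TMM scaling and without ethanol 3, 8 rose and 3 fell. With the length trend removed, 9 rose and 0 fell (median 0.37). At mean levels of 5 FPKM or more, the median of the 12 import genes tested was -0.06. Among the rises with TMM scaling was Tomm20, a receptor for presequences, at 73.01, 77.4 and 75.1 CPM against 29.5, 33.3 and 30.3 CPM (1.28, SE 0.10, adjusted p = 0.000198). The ribosomal RNAs that the members bind did not move together. The 16S rRNA (mt-Rnr2) was at 1356, 1669 and 502.8 CPM against 202.3, 382.4 and 402.6 CPM (1.84, SE 0.46, adjusted p = 0.0163), and the 12S rRNA (mt-Rnr1) overlapped between the groups (-0.26, SE 0.21, adjusted p = 0.36). How ribosomal RNA was treated in library preparation is not given in the sources used here.

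**Figure D4:**
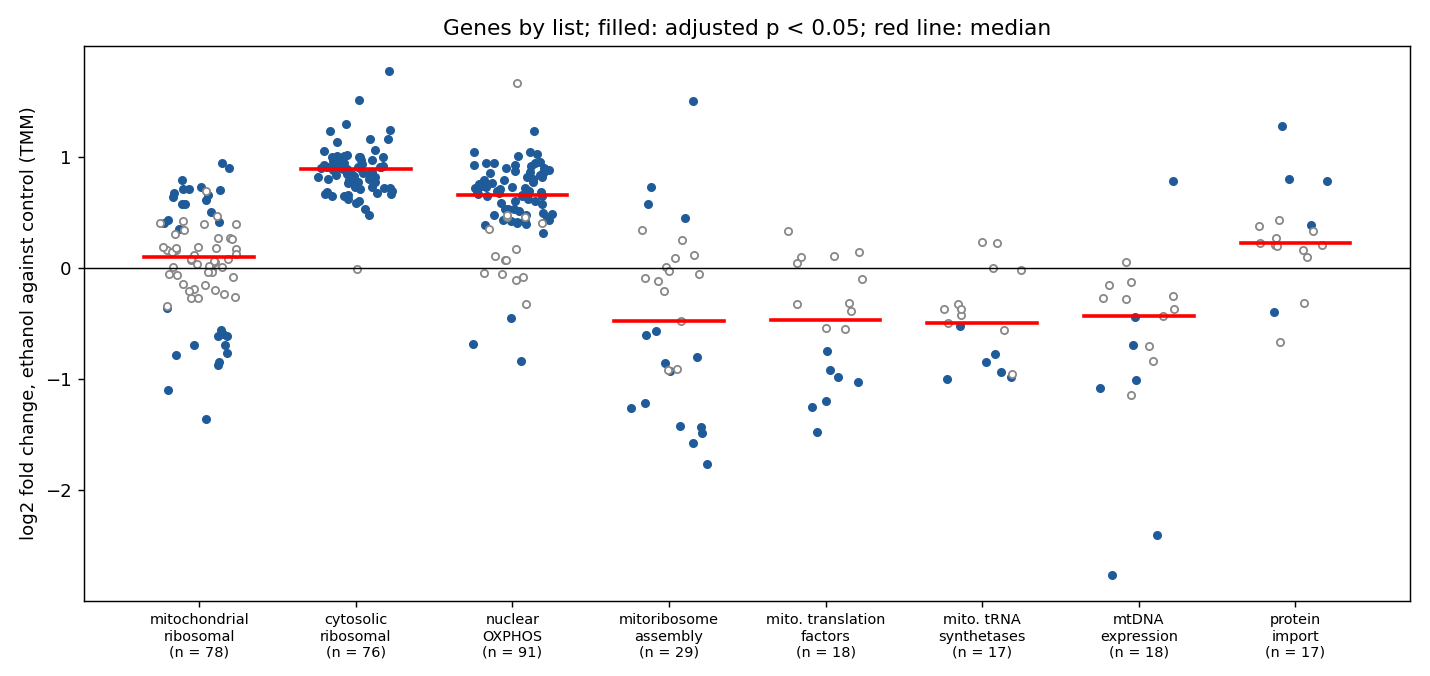
Log2 fold change (ethanol against control, TMM scaling) of each gene in the members and 7 other lists; points are genes, filled where the adjusted p is under 0.05, and red lines are medians. The members spread on both sides of 0 around a median of 0.10 while cytosolic ribosomal protein genes lie around 0.89; with library size alone these medians are -0.57 and 0.22, those of the nuclear OXPHOS and import lists are -0.01 and -0.45, and the other lists stay below 0.

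Many members begin head to head with another gene, so that both starts share a stretch of promoter. By the coordinates of the deposited table, 29 pairs of a member and a protein-coding gene on the other strand had starts within 1000 bp, the nearest 26 bp apart, and 9 of these pairs overlapped. In 9 pairs both genes were called by adjusted p with TMM scaling, in 2 the same way and in 7 opposite ways. Over all genes 21.5% were called in each direction. Head-to-head pairs without a member were not counted, so whether these numbers are unusual was not tested. Mrpl49 and Fau, which encodes a cytosolic ribosomal protein fused to a ubiquitin-like protein, start 59 bp apart and were at -1.36 and 1.13 (adjusted p = 0.000385 for Fau). Mrpl36 and Ndufs6, a complex I subunit, start 51 bp apart and were at -0.87 and 0.77. Mrpl30 and Mitd1 (66 bp apart) were at 0.71 and -1.42, Mrps18c and Helq (29 bp) at 0.64 and -1.70, and Mrps34 and Eme2 (29 bp) at 0.68 and -1.04. Mrps27 and Ptcd2, which acts on mitochondrial RNA, both fell, by 0.79 and 1.16. Mrps11 and Mrpl46, which are both members and overlap at their starts, were at 0.06 and -0.24, neither called. With library size alone 14 pairs had both genes called, 13 of them downward together and 1, Mrpl49 and Fau, opposite ways (-2.02 and 0.46). In that setting 48.3% of all genes fell and 7.39% rose.

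**Figure D5:**
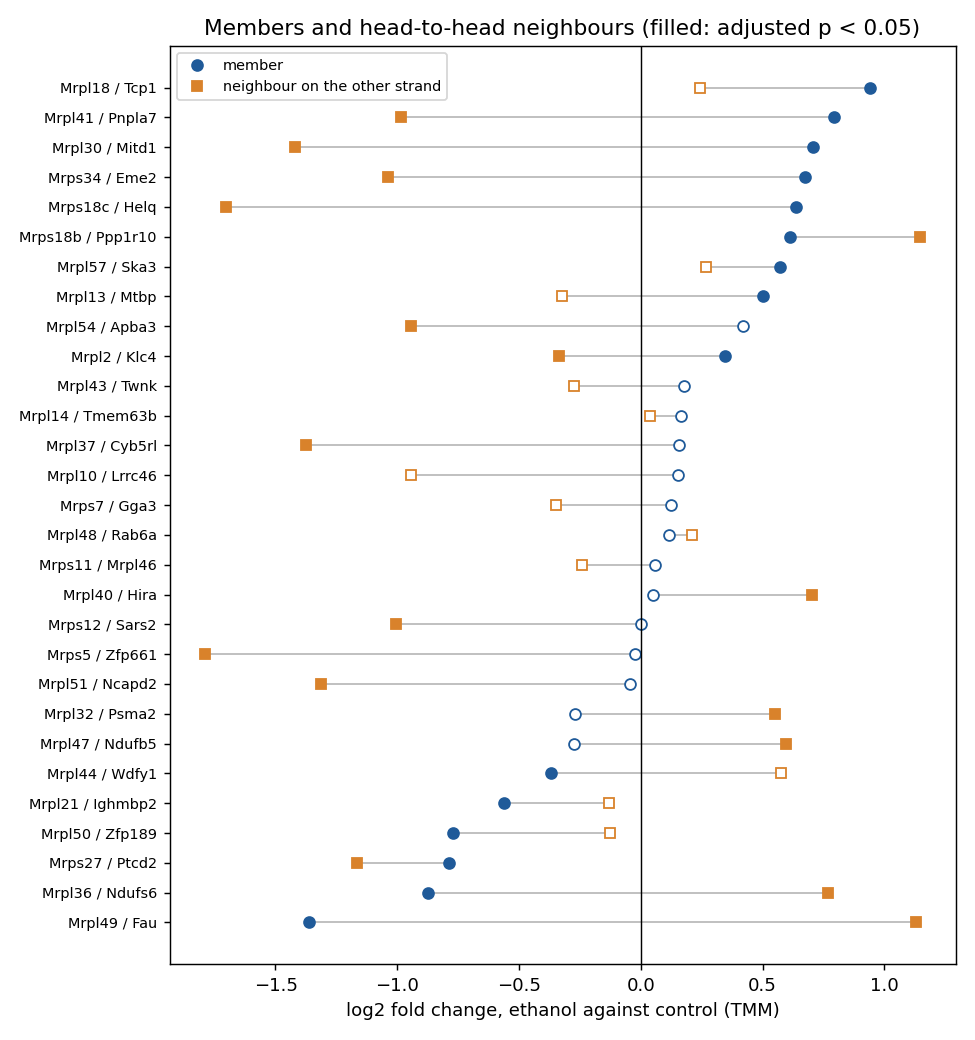
Log2 fold change (TMM scaling) of a member (circle) and its head-to-head neighbour on the other strand (square) for 29 pairs whose starts lie within 1000 bp; filled symbols have an adjusted p under 0.05. Of the 9 pairs with both symbols filled, 7 lie on opposite sides of 0, and with library size alone only Mrpl49 and Fau do so with both called. In that setting 48.3% of all genes fell and 7.39% rose.

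By the same coordinates 34 members overlapped another gene and 8 did so on the same strand. The 8 were Mrps6, Mrps34 (with Nme3, at 89 to 301 counts), Mrps18c, Mrpl3, Mrpl15, Mrpl46, Mrpl21 and Mrpl51, the last 6 with unannotated or microRNA loci of at most 50 counts. Mrpl49 overlapped Syvn1 (91 bp) and Mrpl18 overlapped Tcp1 (645 bp) on the other strand. Longer overlaps of called members on that strand included Mrps34 with Mapk8ip3 (2387 bp, 1883 to 3887 counts). Mrps25 shared 4770 bp with Nr2c2 (81 to 1192 counts). Whether counting used the strand is not given in the sources used here. Without the 8 members, 16 of 70 rose and 10 fell.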

How the data were processed

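Counts and FPKM of 3 ethanol and 3 control mouse livers were analysed, and groups came from the labels. The authors deposited whole-number read counts per Ensembl gene, not normalized, and beside each count an FPKM value, scaled by the authors to transcript length and library size. The study states paired-end sequencing of 150 bp and removal of adaptor and low-quality reads. The aligner, the counter and the library kit are not given in the sources used here. The submitters' processing notes name GRCm38 (mm10), but the deposited start and end equal the GENCODE entry of that build for 1 of 78 members. The deposited interval overlaps that entry for only 3. The table's coordinates thus do not follow that build. Which build they follow is not given in the sources used here, and no genome sequence was read by them. The table held 1 further column of counts that matches no library, which was not used.

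Counts were tested with edgeR 4.0.16 in R 4.3.3 (filterByExpr, TMM factors, quasi-likelihood test, two-sided, no covariates), with Benjamini-Hochberg adjustment over 16717 genes, an adjusted p under 0.05 and, for the stricter call, a log2 fold change beyond 1. Tests were checked on simulated counts, but the outcome is not given here and no value in the text rests on it. SE is the absolute log2 fold change divided by the square root of F. The square root of the common dispersion was 0.299. At the depth of these libraries, the number of mice limits the precision rather than the counting error. The labels name separate mice. Libraries of 1 group differed beyond sampling noise (chi-square divided by its degrees of freedom was 54.3 to 550), and all 6 were kept as separate samples.

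The members and lists were chosen with earlier results of these data known. Named are the 6 highest and 6 lowest members by fold change, the 4 highest and 4 lowest by mean FPKM, those of the stalk, decoding, exit tunnel and S18 lists, Mrps30, Mrps36, mitoribosomal proteins with other symbols, members whose direction changes with the scaling, those with same-strand overlap, and the 2 genes with the smallest adjusted p of each other list. Other genes appear as neighbours or for contrast, and these, with Polrmt, were chosen after their values were seen. Not every gene under the rule is described. Alternatives were other scalings and filters, DESeq2 1.42.0, limma 3.58.1 on log2(FPKM + 1) and log2(FPKM + 0.1), removal of the length trend, robust dispersion, the replicate number as a block and each mouse left out. Leaving out members with same-strand overlap was chosen after seeing the data. Promoter sequences are from RefSeq (GRCm38.p6), matched by symbol.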

Additional observations from a re-analysis of the deposited data

How the results depend on the processing

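Directions depended on the scaling. All genes tested had a median log2 fold change of -0.71 with library size alone and -0.27 and -0.58 with limma on log2(FPKM + 1) and log2(FPKM + 0.1), against -0.04. In these 3 settings no member rose and 51, 53 and 53 fell by adjusted p (65.4%, 67.9% and 67.9%, against 48.3%, 51.7% and 51.9% of all genes), of which 14, 9 and 14 by more than 2-fold (17.9%, 11.5% and 17.9%, against 32.2%, 10.2% and 29.7%); the members' median was -0.57, -0.49 and -0.56, and relative to all genes 0.14, -0.22 and 0.02. The 13 falls were called in each, but all 3 settings moved every member down, so this is no sign of the falls' stability. The shifts were -0.69 to -0.66 with library size alone. They were -0.84 to -0.11 with limma on log2(FPKM + 1) and -0.85 to -0.60 on log2(FPKM + 0.1). Mrpl2 was called lower in all 3 settings (adjusted p = 0.0317, 0.0164 and 0.0165) and Mrpl12 in both limma fits (0.031 and 0.0307). With TMM scaling 48 of the 78 members had a log2 fold change above 0. With library size alone 9 did, and in each limma fit 7. Of the 18 members called upward with TMM scaling, 10 turned negative with library size alone. Those were Mrpl12 -0.26, Mrpl13 -0.17, Mrpl2 -0.32, Mrpl28 -0.10, Mrpl52 -0.25, Mrpl57 -0.10, Mrps18b -0.057, Mrps18c -0.029, Mrps26 -0.022 and Mrps9 -0.27. With limma on log2(FPKM + 1) they were Mrpl12 -0.25, Mrpl13 -0.12, Mrpl2 -0.31, Mrpl28 -0.10, Mrpl52 -0.23, Mrpl57 -0.080, Mrps18b -0.057, Mrps18c -0.029, Mrps26 -0.030 and Mrps9 -0.20, and with log2(FPKM + 0.1) Mrpl12 -0.26, Mrpl13 -0.16, Mrpl2 -0.32, Mrpl28 -0.10, Mrpl52 -0.25, Mrpl57 -0.10, Mrps18b -0.060, Mrps18c -0.033, Mrps26 -0.043 and Mrps9 -0.27. Mrps34 was at -2.8e-05 and -2e-04 in the limma fits. Among the 49 members with a mean FPKM of at least 5, 9 rose and 14 fell by adjusted p. Of these falls 4 were by more than 2-fold. The median of the 49 was -0.12, or -0.13 relative to all genes of that filter. Fewer members and genes were tested there, and the share of all genes called was not computed. With the length trend removed, 1 member rose by more than 2-fold. With 1 mouse left out, rises by adjusted p numbered 11 to 22 and falls 7 to 15, rises beyond 2-fold 0 to 1, falls beyond 2-fold 1 to 2, the median ran from 0.07 to 0.14 and its value relative to all genes from 0.12 to 0.22. Median-ratio factors, upper-quartile factors, DESeq2, no filter and robust dispersion gave 13 to 18 rises and 11 to 15 falls.

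The replicate numbers did not pair the mice: deviations of mice with the same number correlated at -0.04, -0.02 and -0.02, and 0 of 6 libraries correlated best with its own number. With the replicate number as a block, 13 members rose and 10 fell, all among those called without it. With 3 mice a group, smaller differences than those called may have gone undetected.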

Other observations

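Regulators of the nuclear genes for mitochondria did not share a direction. Of 12 listed, 4 passed the test upward and 1 downward, beside 21.5% of all genes in each direction. Myc, a transcription factor of ribosome and mitochondrial biogenesis, was at 48.4, 54.9 and 6.98 CPM in the ethanol mice and 2.81, 3.49 and 3.34 CPM in the control mice (log2 fold change 3.52, SE 0.69, edgeR adjusted p = 0.00654), so ethanol 3 was much nearer to the control mice than the other two. Ppargc1b, the coactivator PGC-1β, had the same split, with 9.99, 8.55 and 2.03 CPM against 2.06, 1.37 and 1.18 CPM, and passed although the groups overlapped (2.16, SE 0.57, adjusted p = 0.0197). Its paralog Ppargc1a, the coactivator PGC-1α, had it too, with 23.0, 22.5 and 5.46 CPM against 8.32, 5.28 and 6.46 CPM, overlapped between the groups and did not pass (1.34, SE 0.50, adjusted p = 0.0653). Gabpb2, which encodes a beta subunit of GABP, fell by 1.93 (SE 0.29, adjusted p = 0.00217), and Gabpb1, which encodes another, rose by 0.68 with TMM scaling (SE 0.16, adjusted p = 0.0141), with all ethanol mice above all control mice, while Gabpa, the DNA-binding subunit, was at -0.19 (adjusted p = 0.429), Nrf1 at 0.23 (adjusted p = 0.512) and Yy1 at -0.27 (adjusted p = 0.364). Ethanol 3 was also the mouse that stood apart for Mrpl38, Mrpl18 and Mrpl47; with 3 mice in each group, no outlier test was run.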
